A study of Mus musculus with 3 samples.

Results

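The mitochondrial ribosomal protein genes are the 76 genes whose symbol in the deposited tables is Mrpl or Mrps followed by a number and at most 1 further letter, out of 36808 rows in each table. There are 47 Mrpl and 29 Mrps symbols. The study sequenced messenger RNA from the mouse embryonic stem (ES) cell line D3, with the strain given as (C3H/HeH x 101/H)F1. The 3 groups, each of 1 library, were wild-type ES cells at day 0, wild-type control embryoid bodies (EBs) at day 4, and EBs of the same day in which Brachyury was knocked down. EBs are clumps of ES cells left to differentiate in suspension, and Brachyury is a T-box factor of the early mesoderm, the product of the gene T. The comparison of ES cells with control EBs follows differentiation, and that of control with knockdown EBs addresses what Brachyury contributes to it. Whole EBs were used, so each value is a mixture over cell types, in which fewer cells of a type and less RNA per cell cannot be told apart. A deposited column header calls the control EBs nontarget. The labels do not say how the knockdown was made, nor whether the ES cells had a nontarget treatment. Between ES cells and control EBs, differentiation and such a treatment therefore cannot be told apart.

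Mitochondria keep their own ribosome, which translates the few messenger RNAs encoded by mitochondrial DNA into core subunits of the respiratory chain and the ATP synthase. The RNA of this ribosome comes from mitochondrial DNA, whereas its proteins are encoded in the nucleus, made in the cytosol and imported. Some of the proteins descend from the bacterial ribosome and others were added in the mitochondrial lineage. In the universal names used here, uL and bL or uS and bS with a final m mark proteins that keep a bacterial or universal place in the large or small subunit, and mL or mS those at places found in mitochondria. Most mL and mS proteins are of the second kind, but Mrps18a and Mrps18b, of a bacterial family, carry such names too. ES cells are often described as largely glycolytic with immature mitochondria, and differentiation as a shift to respiration. Whether this description holds for the cells used here was not tested.

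The symbols follow the subunit with 3 exceptions. Mrps18a (mL66) and Mrps30 (mL65) are proteins of the large subunit in the human ribosome, and the human counterpart of Mrps36 (KGD4) has been reassigned to the oxoglutarate dehydrogenase complex. By structure the set therefore held 49 large subunit genes, 26 small subunit genes and Mrps36. It contained 48 genes with a bacterial homolog and 27 known from mitochondria alone.

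Levels are in FPKM, fragment counts scaled for transcript length and library size, a unit that allows levels of different genes to be compared. The control library was quantified in both tables, once beside ES cells and once beside knockdown EBs, and both comparisons share it. Its 2 values differed by at most 4.25% for the 71 members above 0 in both, and by less than 1% for 63 of them. The sum of FPKM over all genes was 568352 for ES cells, 781453 and 786277 for the control library and 760578 for the knockdown. Read depth is unknown. Since a group is 1 library, differences could not be tested or set against replicate error. A gene is called higher or lower where log2(FPKM + 1) differs by 1 or more, a 2-fold rule of size. The targeted gene T was at 0.297 FPKM in ES cells, 254 FPKM in control EBs and 2.47 FPKM in knockdown EBs. Of the markers set for each stage, 6 of the 6 compared for ES cells were lower in control EBs, with Sox2 listed at 0 throughout, and 7 of 7 for day 4 EBs were higher. In knockdown EBs 4 of the 7 day 4 markers were lower than in control EBs, against 2.53% of all genes. The targeted T is 1 of these 4. Of the 6 ES cell markers compared, 2 were higher in knockdown EBs, against 5.34% of all genes.

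Of the 76 members, 71 were above 0 in all 3 libraries, and their levels were of a middle range. In ES cells they ran from 7.67 to 149 FPKM with a median of 44.9 FPKM. In control EBs the range was 11.6 to 257 FPKM and the median 52.3 FPKM. In knockdown EBs the range was 11.1 to 187 FPKM and the median 51.5 FPKM. The highest member thus stood 19.5-fold, 22.1-fold and 16.9-fold above the lowest in the 3 libraries, although most of these proteins are present in equal number in a ribosome.

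By the mean over the libraries, the most abundant member was Mrpl52 (mL52), a mitochondrial addition to the large subunit, at 149 FPKM in ES cells, 257 FPKM in control EBs and 187 FPKM in knockdown EBs. Mrpl15 (uL15m) had 134, 158 and 157 FPKM in the same order. Mrpl11 (uL11m), part of the stalk base where elongation factors bind, stood at 76.0, 170 and 158 FPKM. Mrpl20 (bL20m) and Mrps21 (bS21m) completed the 5 most abundant by that mean, with 82.0 and 80.1 FPKM in ES cells and 121 and 118 FPKM in control EBs. The order differed between libraries, as Mrpl2, at 118 FPKM, stood above Mrpl11 in ES cells and Mrpl11 above Mrpl15 in both kinds of EB. At the other end of the same mean, Mrpl1 (uL1m), a protein of the mobile stalk beside the exit site for transfer RNA, had 12.1, 11.6 and 11.1 FPKM. Mrps36 had 7.67, 18.3 and 17.2 FPKM. Mrpl35 (bL35m), Mrpl48 (mL48) and Mrps26 (mS26) completed the 5 lowest by that mean, at 12.6, 13.2 and 23.9 FPKM in ES cells, where Mrpl23 was lower than all of them but Mrps36. Each of these low members was below the median of the set in all 3 libraries.

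The order of the members by level was closer between the 2 kinds of EB than between ES cells and EBs. Spearman's rho over the 71 members was 0.803 between ES cells and control EBs and 0.963 between control and knockdown EBs. The points are genes of single libraries and share transcript lengths and the control library, so these are descriptions.

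**Figure D1:**
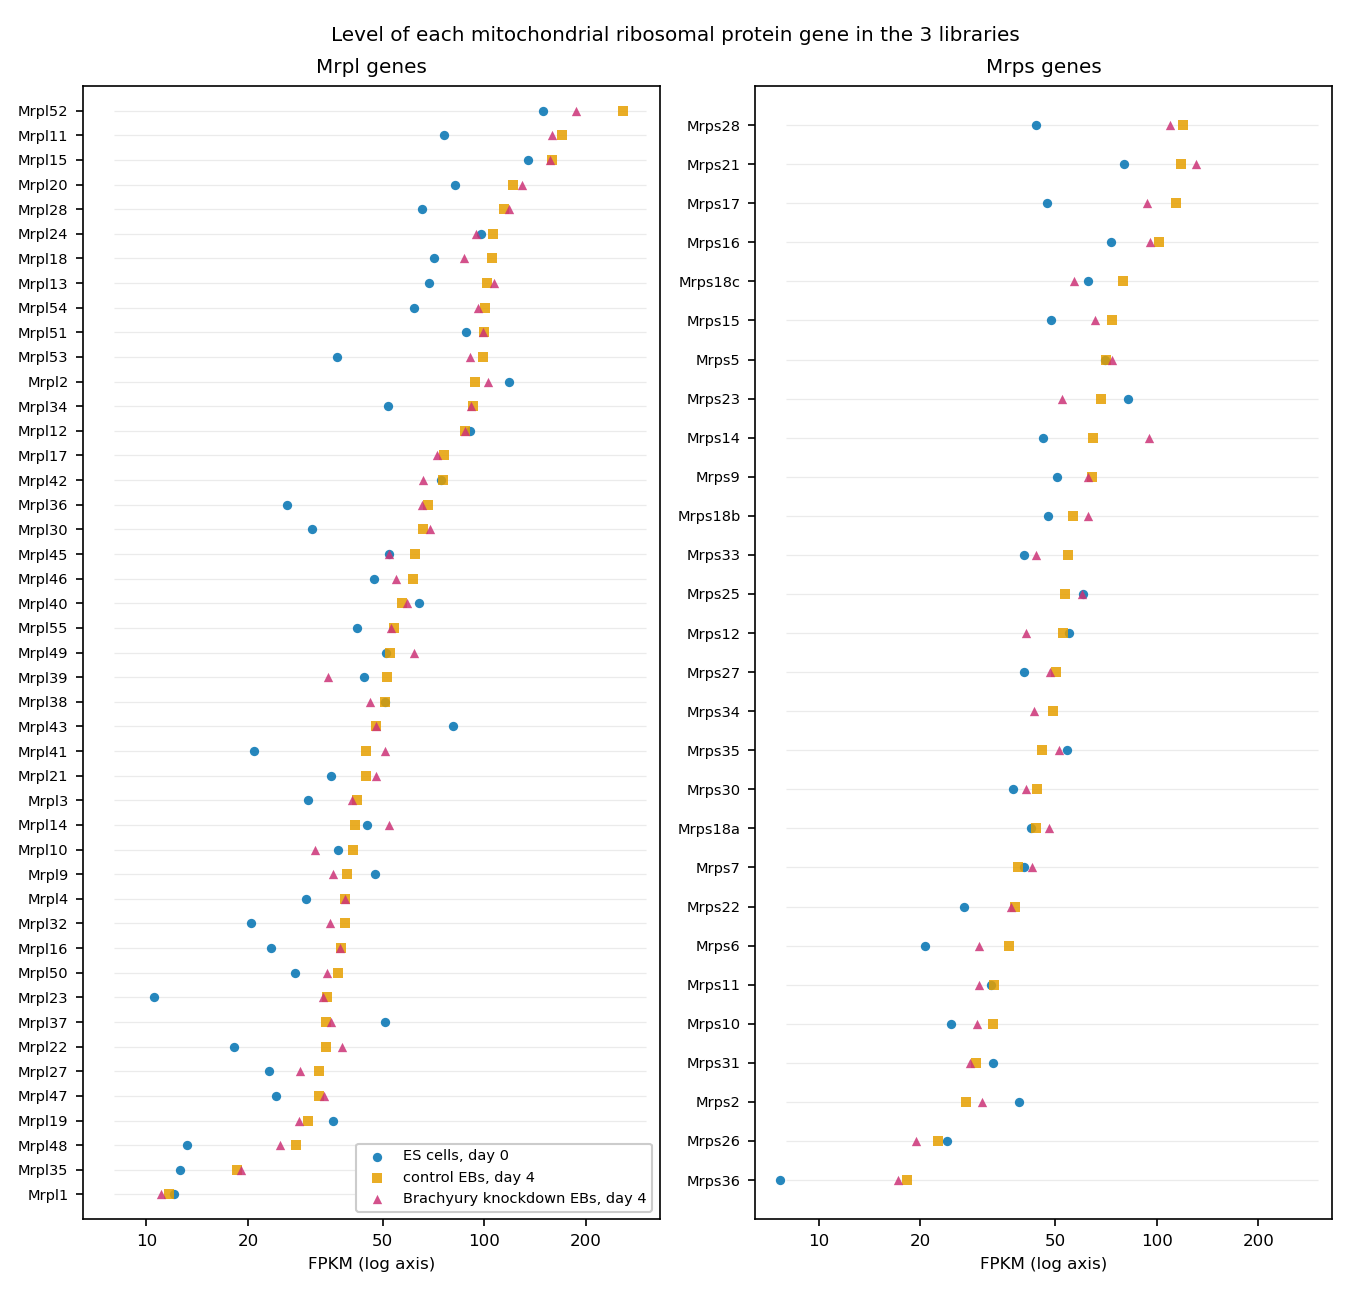
Level of each Mrpl gene (left) and Mrps gene (right) in FPKM on a log axis, 1 point per library, sorted by the level in control EBs. Values of control EBs are from the second table, and the genes listed at 0 in a library have no point there. The highest points are those of Mrpl52, and the ES cell points of Mrpl23, Mrpl36, Mrpl53 and Mrps28 lie well to the left of both EB points.

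Summed over the 71 members, ES cells had 3505 FPKM, control EBs 4560 and 4567 FPKM in the 2 quantifications, and knockdown EBs 4366 FPKM. Control EBs thus had 1.30 times the summed level of ES cells, but 0.946 times after each library was scaled to the same FPKM sum. As a share of all FPKM the members made up 0.617% of the ES cell library, 0.584% and 0.581% of the control library and 0.574% of the knockdown library. The balance of the subunits was close in all libraries. The large subunit genes summed to 2351, 3097 and 2958 FPKM and the small subunit genes to 1145, 1444 and 1390 FPKM in ES cells, control EBs and knockdown EBs. The ratio of large to small was 2.05, 2.14 and 2.13, with 46 large and 24 small subunit genes counted.

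A further 5 members were listed at 0 in ES cells and control EBs in the first table. These were Mrpl17 (bL17m), Mrpl33 (bL33m), Mrpl44 (mL44), Mrps24 (uS3m) and Mrps34 (mS34). In the second table Mrpl17 stood at 75.8 FPKM in control EBs and 72.5 FPKM in knockdown EBs, and Mrps34 at 49.2 and 43.4 FPKM. Mrpl33, Mrpl44 and Mrps24 were listed at 0 there too. All 5 lie in deposited loci that they share with other genes. Of the 14 other genes in those loci, 0 were above 0 in the first table and 6 in the second. The zeros therefore fell on whole loci and are read here as listed values, not as absence of the transcript.

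Control EBs and ES cells were compared over 71 members. The differences were mostly above 0, and the members past 2-fold were all higher in control EBs. There were 10 such members of 71 (14.1%), against 15.8% of the 13934 genes compared, those that reached 1 FPKM in 1 or both libraries. None was 2-fold lower, against 19.5% of all genes. The median difference of the members was 0.35 in log2(FPKM + 1), with quartiles of 0.0067 and 0.63, and 54 lay above 0 and 17 below. Over all genes the median was -0.10, with quartiles of -0.79 and 0.61. The share of members called higher was thus near that of all genes, while their spread was smaller, with an SD of 0.50 against 1.21 for all genes.

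With a 1.5-fold rule 19 members were higher, against 25.8% of all genes, and 1 was lower, against 31.6%. By the authors' deposited table, 25 members had an unadjusted p under 0.05 with the higher value in control EBs, against 17.7% of all genes, and 2 with the lower, against 19.6%. The 2 lower ones were Mrpl43 and Mrpl2. Scaling each library to the same FPKM sum moved the median of all genes to -0.52 and the median of the members to -0.092. It left 1 member higher (Mrpl23) and 2 lower, with 11.0% and 32.4% of all genes. The gap between the members' median and that of all genes was 0.46 as deposited and 0.43 after this scaling.

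The 10 higher members comprised 7 of 46 large subunit genes, 2 of 24 small subunit genes and Mrps36. These counts are to be read against 15.8% of all genes higher. Mrpl23 (uL23m), whose bacterial homolog lies at the exit of the tunnel for the nascent chain, was at 10.5 FPKM in ES cells, 34.2 FPKM in control EBs and 33.3 FPKM in knockdown EBs. Its ratio of control EBs to ES cells was 3.25, the highest of the set, with a difference of 1.61. The locus in the deposited mm9 coordinates is chr7:149718704-149726652. In the authors' deposited table its unadjusted p was 0.000861, from which a standard error of 0.354 on the natural log scale follows, an error that covers these 2 libraries alone.

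Mrpl36 (bL36m), a small zinc-binding protein in bacteria, had 26.2 FPKM in ES cells, 68.2 FPKM in control EBs and 65.6 FPKM in knockdown EBs, a ratio of 2.61. Mrpl11 had a ratio of 2.23 with the values given above. Mrpl30 (uL30m) had 30.8, 65.8 and 69.1 FPKM. These 4 descend from bacterial proteins, and in each the 2 kinds of EB stood close together and well above ES cells. The other 3 large subunit members are mitochondrial additions. Mrpl53 (mL53) had 36.6 FPKM in ES cells, 98.9 FPKM in control EBs and 90.9 FPKM in knockdown EBs, a ratio of 2.71. Mrpl41 (mL41) had 20.8, 44.7 and 50.9 FPKM. Mrpl48 had 13.2, 27.8 and 24.8 FPKM, with a difference of 1.02, just past the rule.

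In the small subunit, Mrps28 (bS1m), which carries a domain related to bacterial protein S1, had 43.9 FPKM in ES cells, 120 FPKM in control EBs and 109 FPKM in knockdown EBs. Its ratio was 2.73 and its unadjusted p in the authors' deposited table was 5.97e-09. Mrps17 (uS17m), a protein bound to the small subunit rRNA, had 47.5, 114 and 93.8 FPKM, a ratio of 2.40. Mrps36 had a difference of 1.15 with the values given above. Just short of the rule were Mrpl32 (bL32m), with a difference of 0.89, and Mrpl22 (uL22m), with 0.87.

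Named pseudogenes of 3 of the 10 were also in the tables, and reads of such copies may be split between them. Mrpl23-ps1 stood at 44.9 FPKM in ES cells and 188 FPKM in control EBs, above Mrpl23 itself in both. Mrps36-ps1 had 13.7 and 36.0 FPKM, and Mrps36-ps2 11.0 and 34.0 FPKM, likewise above Mrps36. Mrpl48-ps had 28.8 and 36.8 FPKM. Without Mrpl23, Mrps36 and Mrpl48, 7 members were higher and the median was 0.33.

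Promoter windows of 300 bases, 250 before and 50 after the start, were available in RefSeq on build GRCm38.p6 for 67 of the 76 members, as 73 windows. They are shown for the member with the highest ratio (Mrpl23), for 2 further higher members (Mrpl53 and Mrpl36) and for the member with the lowest difference (Mrpl43), 5′ to 3′ on the strand of the gene. Capitals mark letters of a searched motif, and Mrpl23 has none.
Mrpl23, chr7:142532782-142533081, plus strand: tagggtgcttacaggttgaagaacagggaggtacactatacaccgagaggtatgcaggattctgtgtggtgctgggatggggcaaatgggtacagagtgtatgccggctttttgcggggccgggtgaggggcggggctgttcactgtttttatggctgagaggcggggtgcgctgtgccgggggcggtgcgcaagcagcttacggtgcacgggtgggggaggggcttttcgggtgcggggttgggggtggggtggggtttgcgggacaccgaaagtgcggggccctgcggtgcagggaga
Mrpl53, chr6:83108858-83109157, plus strand: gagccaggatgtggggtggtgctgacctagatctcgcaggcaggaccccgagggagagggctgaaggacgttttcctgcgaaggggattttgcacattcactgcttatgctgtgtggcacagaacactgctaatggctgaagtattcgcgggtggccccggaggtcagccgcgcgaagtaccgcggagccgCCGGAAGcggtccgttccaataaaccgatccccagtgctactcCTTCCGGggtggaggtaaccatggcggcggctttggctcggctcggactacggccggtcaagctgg
Mrpl36, chr13:73330759-73331058, plus strand: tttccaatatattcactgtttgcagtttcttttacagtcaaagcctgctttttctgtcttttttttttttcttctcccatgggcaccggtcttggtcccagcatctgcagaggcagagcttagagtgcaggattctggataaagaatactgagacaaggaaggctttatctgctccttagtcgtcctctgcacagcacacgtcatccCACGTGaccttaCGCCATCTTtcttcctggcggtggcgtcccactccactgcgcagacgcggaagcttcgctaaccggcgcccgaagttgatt
Mrpl43, chr19:45006393-45006692, minus strand: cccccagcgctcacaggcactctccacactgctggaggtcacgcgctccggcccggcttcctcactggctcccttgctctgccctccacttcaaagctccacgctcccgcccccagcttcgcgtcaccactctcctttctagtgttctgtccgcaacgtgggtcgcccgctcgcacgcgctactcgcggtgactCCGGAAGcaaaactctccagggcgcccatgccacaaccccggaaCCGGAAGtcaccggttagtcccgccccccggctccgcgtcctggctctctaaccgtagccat

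The motifs were searched on both strands as exact letters, in these windows and in all 32851 windows of the table. The ETS motif CCGGAAG, bound by GABP among other factors known to regulate mitochondrial genes, was found in 24 of 73 member windows (32.9%) and in 8.86% of all windows. The YY1 motif AAGATGGCG was found in 8 member windows (11.0%) and 1.40% of all, and the palindromic NRF1 motif, of 10 letters, in 3 (4.11%) and 0.971%. The E-box CACGTG was in 7 windows of 5 members (9.59%) and 7.15% of all, and the T-box motif AGGTGTGA in 0 and 1.28%. No member window held overlapping matches of different motifs. Member windows had a median GC content of 58.3% and a median of 21 CpG, against 52.7% and 7 over all windows, and the part of base composition in these shares was not tested. Mrpl53 and Mrpl43 both hold the ETS letters at 2 places, and had differences of 1.41 and -0.74. Of the 9 higher members with a window, 2 hold the ETS motif and 1 the YY1 motif. A match describes the letters and is not a binding site, and its bearing on the differences was not tested.

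At the lower end stood Mrpl43 (mL43), at 80.7 FPKM in ES cells, 47.8 FPKM in control EBs and 47.9 FPKM in knockdown EBs. Its deposited locus, chr19:45079504-45087252 in mm9, is shared with Peo1, which encodes the mitochondrial DNA helicase Twinkle, and Peo1 stood at 19.1 FPKM in ES cells and 8.54 FPKM in control EBs. Mrpl37 (mL37) had 50.8, 34.1 and 35.2 FPKM, and Mrps2 (uS2m) 39.2, 27.2 and 30.5 FPKM. None of these 3 members reached 2-fold. Mrpl2 (uL2m), which in bacteria lies beside the catalytic centre, had 118 FPKM in ES cells and 93.7 FPKM in control EBs. In the authors' deposited table its unadjusted p was 2.01e-10 at a difference of only -0.33. It shares its locus with 19 other genes, and the error that this p implies, 0.0368 on the natural log scale, was the smallest of all members. Over members alone in their locus the median implied error was 0.207, and over members that share it 0.153. Mrpl9 (bL9m), Mrps35 (mS35), Mrps23 (mS23) and Mrpl19 (bL19m) followed with differences of -0.27, -0.24, -0.24 and -0.23.

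Large and small subunit genes had median differences of 0.37 and 0.31. Members with a bacterial homolog had a median of 0.46, with 6 of 45 higher. Members known from mitochondria alone had a median of 0.21, with 3 of 25 higher. Both counts are to be read against 15.8% of all genes higher. Transcript length, described below, was not compared between these groups. The 3 Mrps18 genes descend from 1 bacterial protein, and their products sit at 3 different places of the ribosome. Mrps18a (mL66, large subunit) had 42.4 FPKM in ES cells, 44.0 FPKM in control EBs and 48.1 FPKM in knockdown EBs. Mrps18b (mS40) had 47.8, 55.8 and 62.7 FPKM, and Mrps18c (bS18m) 62.7, 78.5 and 56.9 FPKM. Mrps18c was the highest of the 3 in ES cells and control EBs and Mrps18b in knockdown EBs, and none was past 1.5-fold in either comparison. Members alone in their locus had a median of 0.45, with 7 of 44 higher, and members that share it 0.22, with 3 of 27 higher. The share over all genes was again 15.8%.

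**Figure D2:**
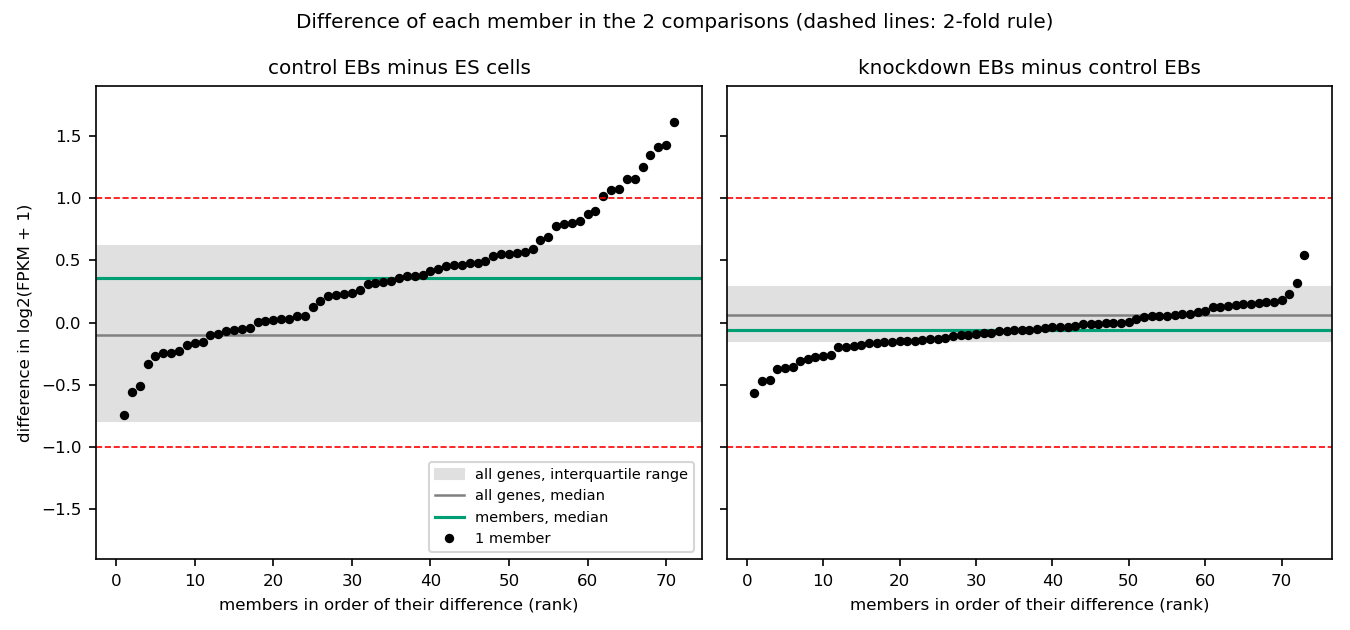
Difference of each member in log2(FPKM + 1), in order of size, for control EBs minus ES cells (left, 71 members) and knockdown EBs minus control EBs (right, 73 members). The green line is the median of the members, the grey line and band are the median and interquartile range of all genes, and the dashed lines mark the 2-fold rule. On the left 10 points lie above the upper dashed line, and on the right none lies outside.

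Mitochondrial ribosomal proteins are small, and short transcripts as a whole stood higher in control EBs. The median transcript length was 1223 bases for the members and 2347 bases for all genes with a length. Over the members Spearman's rho between length and difference was -0.45, and over 13449 genes it was -0.26. The points are genes of the same 2 libraries. In the comparison of knockdown with control EBs the values were 0.071 and 0.048. The 10 higher members had transcripts of 636 to 1929 bases, and 43 of the 61 other members were shorter than 1929 bases too. Under 500 bases the median difference was 0.56 for 3 members and 0.64 for all genes of that length. Between 500 and 750 bases the median difference was 0.84 for 12 members, 5 of them higher, and 0.52 for all genes of that length. Between 750 and 1000 bases it was 0.42 for 12 members, 3 of them higher, and 0.40 for all genes. Between 1000 and 1500 bases it was 0.23 for 18 members and 0.13 for all genes. From 1500 to 2000 bases it was 0.24 for 9 members, 2 of them higher, and -0.047 for all genes. From 2000 to 3000 bases it was 0.26 for 5 members and -0.18 for all genes. Above 3000 bases it was 0.091 for 12 members and -0.38 for all genes. Less the median of all genes in the same length bin, 5 members were past 2-fold higher and none lower. These 5 were Mrpl11, Mrpl23, Mrpl48, Mrps28 and Mrpl32, and the members' median was 0.24. The share of all genes past 2-fold after this subtraction is not given, so the count cannot be read as many or few. The length used for Mrpl32, 3013 bases, exceeds the span of its deposited locus, chr13:14702568-14705304 in mm9. The same holds for Mrps16, with 2572 bases and the locus chr14:21210453-21212777. The length bins of both are therefore uncertain. What part transcript length played in the differences was not tested.

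**Figure D3:**
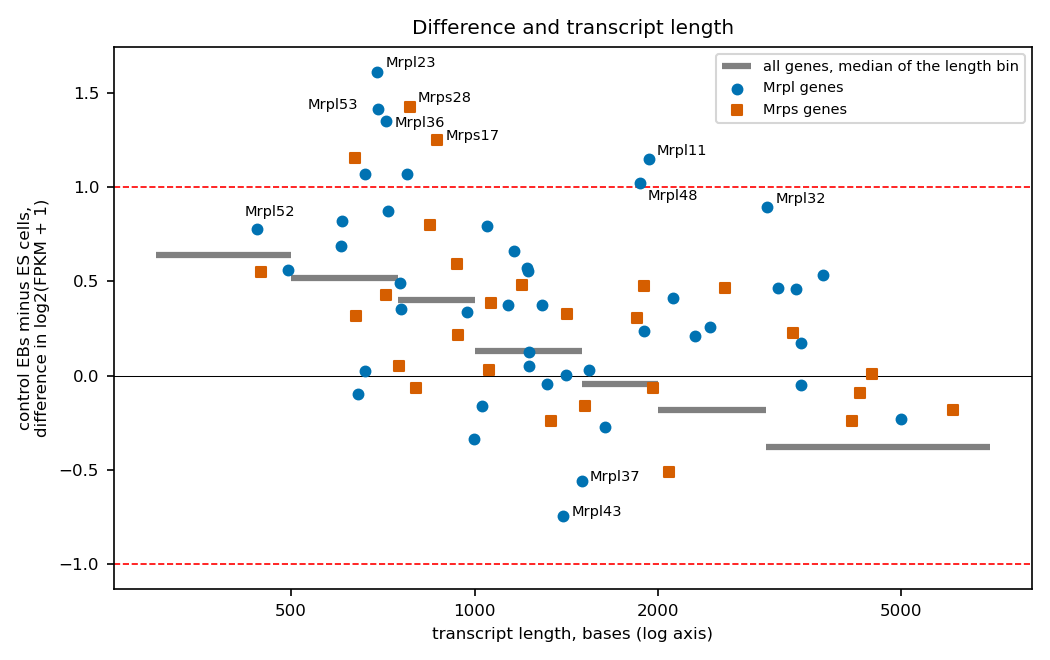
Difference of each member between control EBs and ES cells in log2(FPKM + 1) against transcript length in bases on a log axis. Grey bars are medians of all genes in each length bin, falling from 0.64 under 500 bases to -0.38 over 3000 bases, and the dashed lines mark the 2-fold rule. The 10 members above the upper line have transcripts of 636 to 1929 bases, and 43 of the 61 others are shorter than 1929 bases too.

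Brachyury knockdown EBs and control EBs were compared over 73 members. None was 2-fold higher, against 5.34% of 13780 genes, and none 2-fold lower, against 2.53%. Nor was any past 1.5-fold, against 11.5% of all genes higher and 5.96% lower. The differences ran from -0.56 to 0.54 with an SD of 0.19, against 0.60 for all genes. Of genes that reached 20 FPKM in 1 or both libraries, as 70 of the members did, 6.47% were 1.5-fold higher and 4.87% lower. The median of the members was -0.060, with 24 above 0 and 49 below, and that of all genes 0.057. After scaling to the same FPKM sum the member median was -0.010, with 35 above 0 and 38 below.

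The 2 lowest large subunit members were Mrpl39 (mL39), at 51.5 FPKM in control EBs and 34.5 FPKM in knockdown EBs, and Mrpl52, at 257 and 187 FPKM. Mrps18c had 79.3 and 56.9 FPKM in the same order. At the upper end were Mrps14 (uS14m), a protein of the small subunit head, at 64.6 and 94.7 FPKM, and Mrpl14 (uL14m), at 41.6 and 52.1 FPKM. These values stand for 1 library each. By the authors' deposited p, from their deposited table, 3 members had an unadjusted p under 0.05 with the higher value in knockdown EBs, against 6.18% of all genes, and 2 with the lower, against 4.65%. The 3 were Mrps14 with p = 0.0181, Mrpl14 with 0.0325 and Mrpl2 with 0.0275 in the authors' deposited table. The 2 were Mrpl52 with p = 0.000892 and Mrpl18 (uL18m) with 4.69e-06 in the authors' deposited table. Mrpl18 had 106 FPKM in control EBs and 87.4 FPKM in knockdown EBs and shares its locus with 4 other genes. Mrps23, Mrpl10 (uL10m), Mrps12 (uS12m), Mrps33 (mS33) and Mrps6 (bS6m) were the next lowest, with differences of -0.37, -0.37, -0.36, -0.31 and -0.29. Mrpl49 (mL49) and Mrpl41 were the next highest, with 0.23 and 0.18, and Mrps25, Mrps35, Mrps2 and Mrpl22 lay between 0.15 and 0.17. The 10 members past 2-fold between ES cells and control EBs had differences from -0.28 to 0.18 in the knockdown, in a comparison that shares the control library.

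Other cell types were checked in the same libraries. The 5 visceral endoderm markers summed to 7.58 FPKM in ES cells and 5.11 FPKM in control EBs. Of the 3 compared, 1 was 2-fold higher in control EBs and 1 lower, against 15.8% and 19.5% of all genes. In the second table the 5 markers summed to 5.12 and 17.2 FPKM in control and knockdown EBs, of which Hnf4a made 0.25 and 12.2 FPKM. Of the 4 compared there, 2 were 2-fold higher and 0 lower, against 5.34% and 2.53% of all genes. The lowest of the 4 had a difference of -0.90. The 6 fibroblast markers, for feeder cells, summed to 2.91 and 3.87 FPKM in ES cells and control EBs and to 6.95 FPKM in knockdown EBs, of which Thy1 made 2.72, 3.30 and 6.45 FPKM, while Col3a1 and Lum were listed at 0 throughout. The part of such cells in the differences was not tested.

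The other genes of mitochondrial translation were described by list. Mitochondrial DNA itself encodes 13 proteins, the products that this ribosome makes, and 7 of their 13 messenger RNAs were past 2-fold in favour of control EBs over ES cells, none the other way, against 15.8% of all genes higher and 19.5% lower. Their median difference was 1.05. Their FPKM summed to 21983 in ES cells, 45494 in control EBs and 41320 in knockdown EBs, which was 3.87%, 5.82% and 5.43% of all FPKM. The cytochrome oxidase subunit gene mt-Co3 had 860 FPKM in ES cells and 3978 FPKM in control EBs, and mt-Nd3, of complex I, 210 and 688 FPKM. By contrast mt-Nd6, the protein gene on the other strand, had 1364 and 1062 FPKM. After scaling to the same FPKM sum 2 of the 13 were past 2-fold higher, against 11.0% of all genes, and the median was 0.59. Of the 2 mitochondrial rRNAs, mt-Rnr2 of the large subunit was higher, with 97.4 FPKM in ES cells and 225 FPKM in control EBs, and mt-Rnr1 of the small subunit had 214 and 194 FPKM. The libraries were made with an mRNA kit, so rRNA levels are not those of the ribosome.

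The counts of the nuclear lists are to be read against the same shares, 15.8% of all genes higher and 19.5% lower. Of 7 ribosomal proteins named by other symbols, 1 was higher, Chchd1 (mS37), with 65.7 FPKM in ES cells and 195 FPKM in control EBs, and the median was 0.11. Of 20 enzymes that charge or formylate mitochondrial transfer RNA, 0 were higher and 2 lower, the synthetases Aars2 (18.4 to 6.54 FPKM) and Vars2 (22.7 to 8.52 FPKM), with a median of -0.33. Of 12 translation factors, 0 were higher and 3 lower, with a median of -0.65. These were the elongation factors Gfm1 (62.8 to 22.2 FPKM) and Tufm (33.5 to 15.9 FPKM) and the initiation factor Mtif3 (23.1 to 8.52 FPKM). All 3 act on the ribosome whose proteins had a median of 0.35.

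Of 22 factors for ribosome assembly and rRNA modification, 2 were higher and 1 lower, with a median of -0.062. The higher ones were 2410003K15Rik, also named Malsu1, a factor of large subunit assembly, at 20.3 and 65.7 FPKM, and Mterfd1, also named Mterf3, at 10.2 and 21.7 FPKM. The lower one was 1110032A13Rik, also named Rbfa, a factor of small subunit maturation, at 45.8 and 17.0 FPKM. Of 19 genes for transcription and replication of mitochondrial DNA and their nuclear regulators, 0 were higher and 5 lower, with a median of -0.43. These were the coactivator Pprc1 (59.1 to 16.1 FPKM), the DNA polymerase Polg (31.0 to 11.9 FPKM), the RNA polymerase Polrmt (16.8 to 6.29 FPKM), the ETS factor subunit Gabpa (64.9 to 27.9 FPKM) and Peo1. In all 7 lists together 11 genes were higher and 11 lower of 95, against 15.8% and 19.5% of all genes. After scaling to the same FPKM sum they were 4 and 30, against 11.0% and 32.4%. Over all 95, neither count of lower genes stood above the share over all genes. These 95 include the 2 rRNAs and the 13 protein genes of mitochondrial DNA, and 0 of those 13 were lower under either setting. All lower genes were thus among the others, and the share over all 95 is below theirs. No count of lower genes for the nuclear lists alone is given after scaling. Of the nuclear lists as deposited, the translation factors (3 of 12) and the last list (5 of 19) stood above 19.5% lower. The other nuclear lists stood below it.

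Between knockdown and control EBs 0 of the 96 genes in these lists were past 2-fold, against 5.34% of all genes higher and 2.53% lower. The highest was Guf1, a translation factor, with 11.1 FPKM in control EBs and 22.1 FPKM in knockdown EBs, a difference of 0.93. Medians of the lists lay between -0.12 for the proteins of mitochondrial DNA and 0.27 for the 2 rRNAs.

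**Figure D4:**
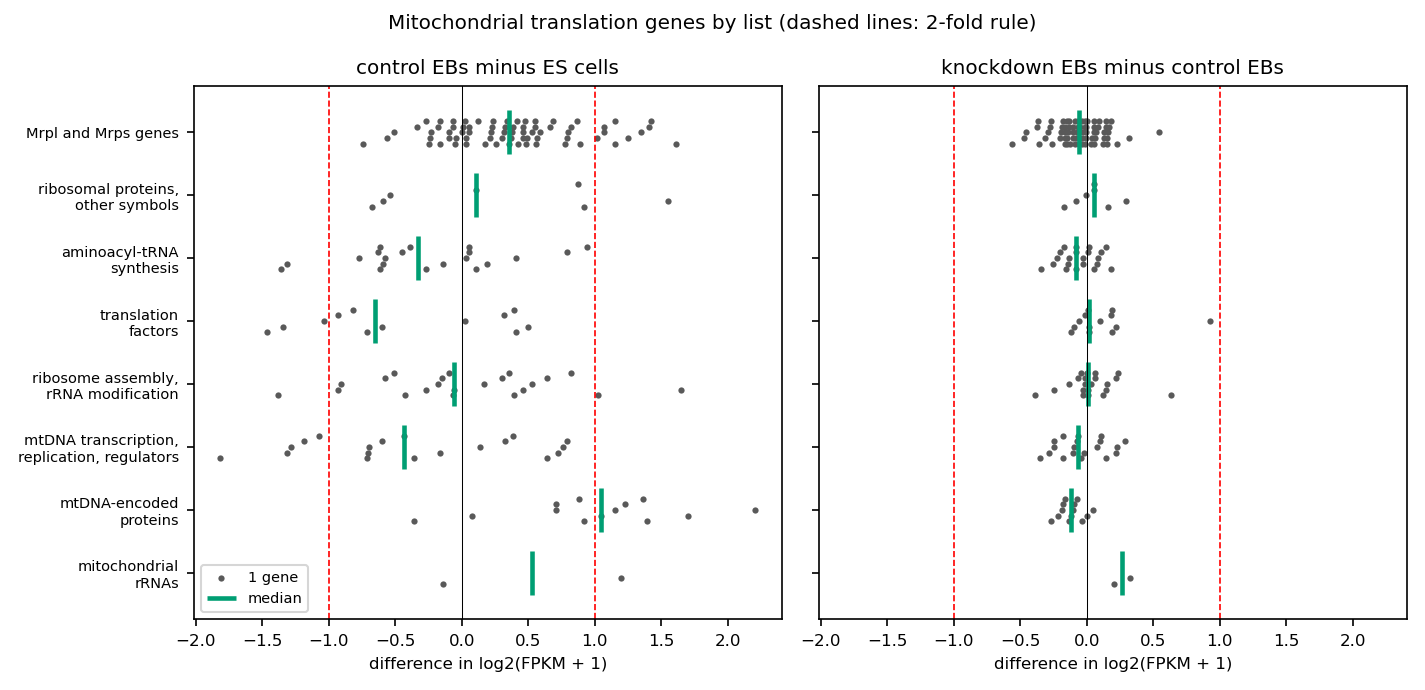
Difference in log2(FPKM + 1) of each gene in the Mrpl and Mrps set and in 7 lists of mitochondrial genes, for control EBs minus ES cells (left) and knockdown EBs minus control EBs (right). Points are genes, green bars are medians and dashed lines mark the 2-fold rule. On the left the median is 0.35 for the set, 1.05 for the proteins of mitochondrial DNA and -0.65 for the translation factors, and on the right no point lies outside the dashed lines.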

How the data were processed

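Messenger RNA was sequenced from 1 library each of ES cells, control EBs and Brachyury knockdown EBs, grouped by sample title. TRIzol LS was used for extraction and an Illumina kit for mRNA libraries, per the labels' protocols. The submitters' processing notes name Bowtie, Cuffdiff and mm9, with no version. The 2 deposited tables give FPKM, which the authors scaled by transcript length and depth from counts not used here, with the natural log of the fold and the authors' unadjusted p-value. No q-value or significance column was used, so an unadjusted p under 0.05 stands for the authors' call. The day 4 column beside ES cells was read as the control library from the sample's title. Depth, annotation and strand use are unknown, so overlapping genes and near-identical copies are uncertain.

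Rows of one symbol were summed, and 25 rows whose symbols had become dates were looked up by gene ID. Comparisons within a table used log2(FPKM + 1) of genes that reached 1 FPKM in a library, which understates the change of low genes. Ratios in the text are of FPKM. Lengths are medians over the basic set of coding transcripts in GENCODE M21, for which 31838 gene IDs were found. Coordinates of loci are mm9, with 1 added to the start, and those of promoters GRCm38.p6, from RefSeq. The error implied by the authors' p is the natural log fold divided by the normal deviate of that p. Named genes were T, the 5 most and 5 least abundant members, the 8 highest and 8 lowest differences with at least 5 FPKM in either library, all members past the size rule or listed at 0, the 3 Mrps18 genes and up to 4 genes of each list. Mrpl18, Mrpl32, Mrps16, Peo1, mt-Nd6 and the markers listed at 0 were named after their values were seen. The members and lists were chosen with earlier results of these data known. Other settings tried were a pseudocount of 0.1 or 0.5, a floor of 5 FPKM or none, 2 scalings, the highest row of a symbol, a 1.5-fold rule and the authors' p. Those added after seeing the data were a floor of 20 FPKM, length bins, members alone in their locus, members without a named pseudogene, and all alternatives for sums and lists. Calling was checked on simulated data with planted changes. Python 3.11.15, pandas 2.3.3 and numpy 2.4.6 were used.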

Additional observations from a re-analysis of the deposited data

How the results depend on the processing

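The count of members past 2-fold between control EBs and ES cells was 10. It became 3 after scaling to the same FPKM sum, 20 with a 1.5-fold rule, 27 with the authors' p under 0.05 and, chosen after seeing the data, 5 less the length bin median. No share over all genes is given for that last count. The median of 0.35 became 0.36 with pseudocounts of 0.1 and 0.5, -0.092 after scaling to the same sum, 0.46 after scaling the median ratio of all genes to 0, 0.24 less the length bin median, 0.45 for members alone in their locus and 0.33 without members that have a named pseudogene. Between knockdown and control EBs the count of 0 became 5 with the authors' p, and the median of -0.060 became -0.010 and -0.11 under the 2 scalings, -0.093 less the length bin median and -0.051 for members alone in their locus. The summed level of control EBs over ES cells was 1.30 as deposited and 0.946 and 1.40 under the 2 scalings. The 22 listed genes past 2-fold became 34 after scaling to the same sum. Each of the 10 members kept its sign under all of these alternatives that included it, but 9 fell short of 2-fold after scaling to the same sum and 6 less the length bin median. The cause of these shifts was not tested. No paired analysis was possible because each group is 1 library. Read depth is unknown and limits what can be said of single members.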
